A study of Homo sapiens with 12 samples.

Results

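HepG2 is a liver tumour line whose chromosomes 2, 14, 16, 17 and 20 are known to be present in extra copies. All peaks on these 5 autosomes, called the gained chromosomes here, were compared with the peaks on the other 17 autosomes. The gained chromosomes held 331642 of the 1425473 peaks in 8 peak lists, and the other autosomes held 1058144. Copy number was not measured in these data, so the grouping rests on what is known of the line.

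The lists came from CUT&Tag, in which an antibody brings a transposase to chromatin and the released fragments are sequenced. The cells were HepG2/C3A, a subline of HepG2 labelled as epithelial-like hepatocellular carcinoma and grown in high-glucose DMEM with serum. One antibody bound histone H3 trimethylated at lysine 27 (H3K27me3) and the other, a pan-succinyllysine antibody (Ksu), bound lysines that carry a succinyl group in any protein. For each antibody there were 2 control libraries and 2 libraries from cells given 10 mM sodium succinate, both after 48 h, and the design text calls the control a vehicle. The labels call the replicates biological. All groups are 1 cell line, with no allele or agent besides the succinate, so a feature of that line is shared by every library. No IgG value stands beside the results, since the 4 IgG samples were not used here. For H3K27me3 the gained chromosomes held 5267 and 1797 peaks in the controls and 2894 and 1701 after succinate. For Ksu they held 23384 and 78948 peaks in the controls and 79810 and 137841 after succinate.

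H3K27me3 is written by Polycomb repressive complex 2 and lies over silent genes, above all over regulators of embryonic development that a mature cell keeps off. Lysine succinylation is an acyl mark found on metabolic enzymes and also on histones, and succinyl-CoA is its donor. In peak lists, more copies of a chromosome and more mark per copy cannot be told apart.

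The mark on these chromosomes can be seen at the promoters of developmental genes. For 4 of the gained chromosomes, 1 listed developmental gene is shown. Its promoter lay wholly under H3K27me3 peaks in all 4 libraries, and those peaks were the tallest on average among matched promoters of listed genes. Promoters were matched for only part of the genes, 15101 against 19126 protein-coding genes on autosomes. A listed gene without a matched promoter could not be shown. No matched promoter of a listed gene on chromosome 16 met that condition. The 250 bases before each start are printed 5′ to 3′ on the gene's strand, from RefSeq on GRCh38.p14, with every CG in capitals because Polycomb-bound promoters are known to be rich in CpG.
WNT10A: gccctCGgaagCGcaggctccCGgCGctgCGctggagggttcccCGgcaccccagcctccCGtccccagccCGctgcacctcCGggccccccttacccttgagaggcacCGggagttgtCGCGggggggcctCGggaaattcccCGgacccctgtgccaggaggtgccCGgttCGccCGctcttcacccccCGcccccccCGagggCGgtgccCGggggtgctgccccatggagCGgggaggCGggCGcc
GSC: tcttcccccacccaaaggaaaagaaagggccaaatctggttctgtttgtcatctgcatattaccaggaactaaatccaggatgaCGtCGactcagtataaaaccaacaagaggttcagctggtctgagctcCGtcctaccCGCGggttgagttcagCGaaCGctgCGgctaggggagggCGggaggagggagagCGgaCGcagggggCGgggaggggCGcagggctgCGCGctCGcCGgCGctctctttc
WNT3: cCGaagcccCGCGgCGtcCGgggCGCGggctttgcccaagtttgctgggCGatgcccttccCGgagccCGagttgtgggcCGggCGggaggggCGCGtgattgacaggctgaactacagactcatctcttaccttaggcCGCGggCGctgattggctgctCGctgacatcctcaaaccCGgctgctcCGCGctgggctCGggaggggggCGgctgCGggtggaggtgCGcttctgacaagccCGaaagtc
NKX2-2: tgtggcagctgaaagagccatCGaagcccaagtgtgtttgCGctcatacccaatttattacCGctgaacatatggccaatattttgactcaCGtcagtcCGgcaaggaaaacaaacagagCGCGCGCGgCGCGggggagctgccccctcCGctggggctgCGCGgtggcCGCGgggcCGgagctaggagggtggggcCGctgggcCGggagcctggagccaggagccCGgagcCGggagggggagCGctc
WNT10A, a secreted Wnt ligand, has its stretch at chr2:218880602-218880851 on the plus strand, with 24 CG. GSC, the homeobox gene goosecoid, has its stretch at chr14:94770114-94770363 on the minus strand, with 18 CG. WNT3, another Wnt ligand, has its stretch at chr17:46818693-46818942 on the minus strand, with 26 CG. NKX2-2, a homeobox regulator of neural and pancreatic fate, has its stretch at chr20:21522690-21522939 on the minus strand, with 22 CG.

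CG is common in promoters of this length whether or not they carry the mark. The letters CG, which read the same on both strands, occurred in 97.8% of the 3452 promoters matched on the gained chromosomes and in 96.6% of the 11649 on the other autosomes. The median number of CG in 250 bases was 19 on the gained chromosomes and 17 elsewhere. Among the 336 gained-chromosome promoters overlapped by H3K27me3 in all 4 libraries it was 14.5, below the median of all matched promoters there.

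The peak over the WNT10A stretch had a height of 480 and 549 steps in the controls and 703 and 1322 after succinate. A step is the smallest unit of the deposited highest signal in a library, and the height of a peak is that signal counted in steps. The GSC peak had 178 and 204 steps in the controls and 223 and 398 after succinate, and the WNT3 peak had 217 and 242 steps in the controls and 366 and 518 after succinate. Heights in steps depend on a library's depth, so they were compared only within a library. No Ksu peak touched any of the 4 stretches in any of the 4 Ksu libraries. In single libraries Ksu peaks touched only 2.55% to 11.2% of the matched promoters on the gained chromosomes. Their absence from 4 stretches therefore says nothing of promoters that carry H3K27me3.

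The first comparison asked whether the gained chromosomes carried more peaks, more covered DNA and taller peaks than the other autosomes in the same library. They did, in all 8 libraries and for all 3 measures. Length was counted as 100 kb windows that held a peak of any library, 541.9 Mb on the gained chromosomes and 2671.1 Mb on all autosomes, or 20.3%. The gained chromosomes held 27.8% and 31.0% of the autosomal H3K27me3 peaks in the controls and 29.2% and 30.9% after succinate. They held 30.7% and 21.3% of the autosomal Ksu peaks in the controls and 27.5% and 22.5% after succinate. Every share lay above 20.3%, and the 2 smallest were those of replicate 2 of Ksu.

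H3K27me3 peaks numbered 9.72 and 3.32 per Mb on the gained chromosomes in the controls, against 6.43 and 1.87 on the other autosomes. In succinate they numbered 5.34 and 3.14 per Mb against 3.30 and 1.79. They covered 10.9% and 6.93% of the gained chromosomes in the controls, against 6.52% and 3.70%, and 9.81% and 8.24% after succinate, against 5.60% and 4.44%. Each library thus had its higher value on the gained chromosomes, and the gap was of like size in all 4. On a log2 scale the gained-to-other ratio of covered share was 0.74, 0.90, 0.81 and 0.89 for control replicates 1 and 2 and succinate replicates 1 and 2.

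Ksu peaks numbered 43.2 and 146 per Mb on the gained chromosomes in the controls, against 24.8 and 137. In succinate they numbered 147 and 254 per Mb against 98.9 and 223. They covered 4.66% and 7.08% of the gained chromosomes in the controls, against 2.56% and 6.64%, and 9.88% and 13.6% after succinate, against 6.22% and 11.6%. The log2 ratio of covered share was 0.87 and 0.09 in the controls and 0.67 and 0.23 after succinate. Both libraries with the small ratios were replicate 2, and these had the lowest floors. The floor, the lowest total signal of any listed peak in steps, was 8977 and 76.0 in the control Ksu libraries and 4247 and 49.0 in the succinate ones.

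**Figure D1:**
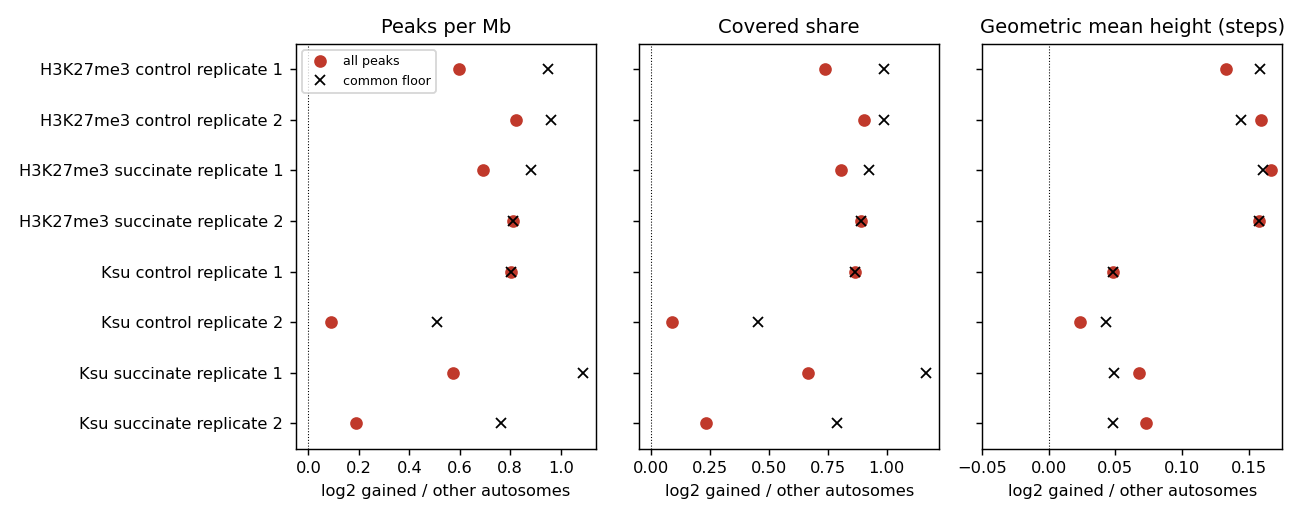
Log2 ratio of the gained chromosomes to the other autosomes for peaks per Mb, covered share and geometric mean height in steps, one row per library, with circles for all listed peaks and crosses for peaks above a common floor per antibody. All 8 circles lie right of 0 in each panel, and for covered share the Ksu circles run from 0.09 to 0.87.

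Peaks on the gained chromosomes were also slightly taller. The geometric mean height of H3K27me3 peaks was 95.2 and 170 steps in the controls against 86.9 and 152 on the other autosomes, and 157 and 283 after succinate against 140 and 254. For Ksu it was 33.2 and 11.3 in the controls against 32.1 and 11.2, and 24.0 and 17.4 after succinate against 22.9 and 16.6. The difference was small next to that in number or cover, at 0.13 to 0.17 on the log2 scale for H3K27me3 and 0.02 to 0.07 for Ksu.

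Over the 8 libraries the mean log2 ratio was 0.57 ± 0.28 for peaks per Mb (SD, n = 8, 1.49-fold), by an exact two-sided sign-flip permutation test with p = 0.0078. It was 0.65 ± 0.31 for covered share (SD, n = 8, 1.57-fold) and 0.10 ± 0.06 for height (SD, n = 8, 1.07-fold), each with an exact permutation p = 0.0078 and higher in 8 of 8 libraries. That p is the smallest that sign flips over 8 libraries allow, and it stayed 0.0078 after Benjamini-Hochberg adjustment over the 3 measures. The 8 libraries come from 1 line, so the test concerns the spread between libraries of that line and not between lines. The test sets the same chromosomes against the rest in every library, so it cannot say whether the gained set is unusual among autosomes. When single autosomes were tested in this way, 4 of 22 passed above the others and 9 below for cover after adjustment. For height, 4 of 22 passed above and 12 below.

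The gap was compared between the antibodies. For covered share the log2 ratio averaged 0.84 ± 0.08 in H3K27me3 and 0.46 ± 0.36 in Ksu (SD, n = 4 each), a difference of 0.37 with an exact permutation p = 0.0857, adjusted p = 0.114. For height it averaged 0.15 ± 0.01 and 0.05 ± 0.02 (SD, n = 4 each), a difference of 0.10 with an exact permutation p = 0.0286, adjusted p = 0.0857. The heights did not overlap between antibodies, but the difference did not pass the 0.05 threshold after adjustment over 3 measures. For peaks per Mb the averages were 0.73 ± 0.11 and 0.41 ± 0.33 (SD, n = 4 each), with an exact permutation p = 0.114. Without chromosome 2 all 3 differences between the antibodies passed, with an adjusted exact permutation p = 0.0286 each and sizes of 0.65 for number, 0.80 for cover and 0.12 for height. At the common floor the differences fell to 0.11 for number and 0.13 for cover, and without chromosome 17 to 0.21 and 0.20, none past the threshold. Without Ksu control replicate 1 all 3 passed, so the call depended on the chromosomes and libraries used.

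Unequal floors bear on the Ksu values. When the Ksu libraries were held to the highest floor of the 4, the log2 ratio of covered share was 0.87 and 0.45 in the controls and 1.17 and 0.79 after succinate. The ratio of replicate 2 was then larger in both treatments. Only 2507 autosomal Ksu peaks remained in control replicate 2 under that floor. For H3K27me3 the same step gave 0.99 and 0.99 in the controls and 0.92 and 0.89 after succinate.

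The 5 chromosomes did not behave as a group. Chromosomes 20, 2 and 16 stood above the other 21 autosomes in covered share, chromosome 14 stood below its other 21, and chromosome 17 stood above in H3K27me3 and on both sides in Ksu. Each autosome was set against the other 21 in every library by the exact sign-flip test over 8 libraries, adjusted over the 22 autosomes for each measure. This comparison was added after the values were seen, and the libraries of an antibody share cells and floor effects. For covered share, 3 of the 5 gained chromosomes (2, 16 and 20) and 1 of the 17 others (10) passed above. That makes 18.2% of the autosomes, and the same 4 passed above for peaks per Mb, also 18.2%. Chromosome 14 was among the 40.9% of autosomes that passed below for each of these measures. For height, chromosomes 2 and 20 passed above with 6 and 10, again 18.2%, and chromosome 14 was among the 54.5% that passed below.

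**Figure D2:**
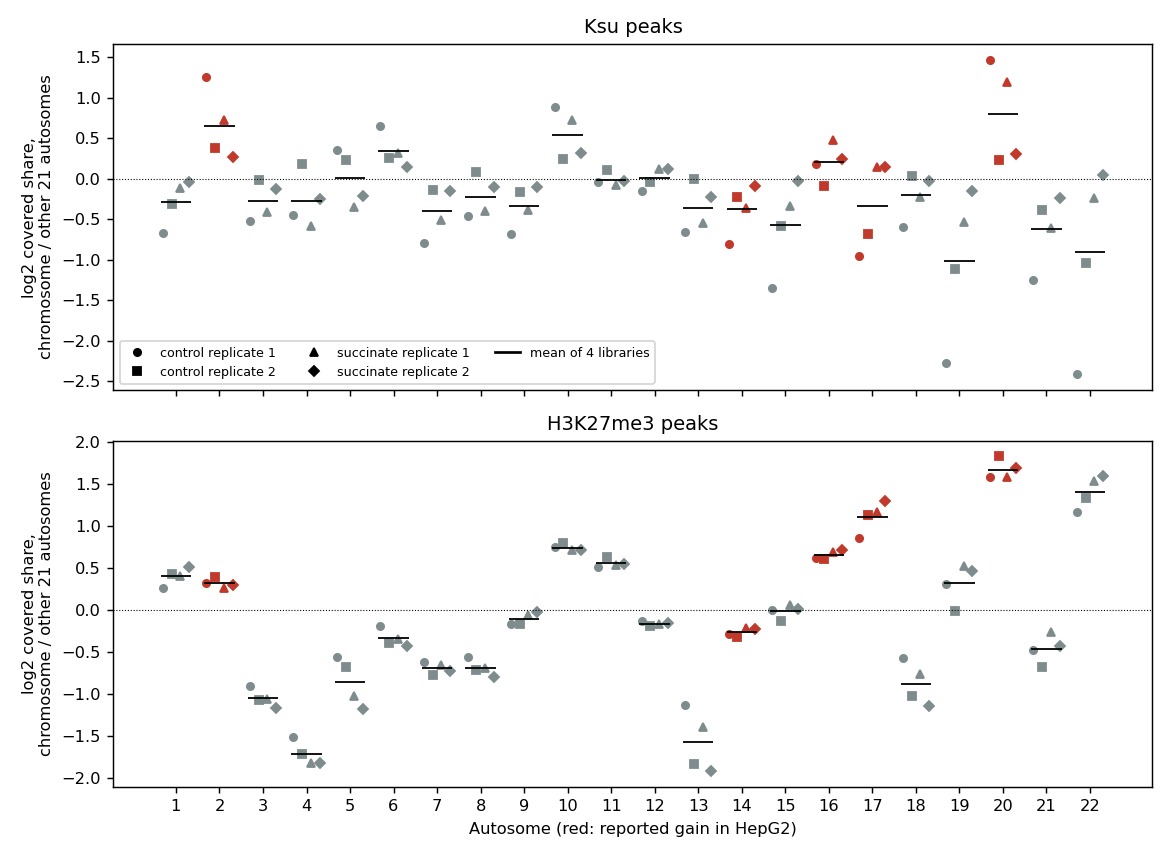
Log2 covered share of each autosome relative to the other 21, one symbol per library, with Ksu above and H3K27me3 below, red for the gained chromosomes and bars for the mean of 4 libraries. Chromosomes 2 and 20 lie above 0 in every library, chromosome 14 lies below 0 in every library, and chromosome 17 lies on both sides for Ksu.

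Chromosome 20 showed the widest gap. H3K27me3 peaks covered 21.2% and 14.6% of it in the controls and 18.4% and 15.9% after succinate. Ksu peaks covered 7.94% and 7.88% in the controls and 15.4% and 14.8% after succinate. These were between the highest and the fourth highest of the 22 autosomes in every library. The mean log2 ratio to the other 21 autosomes was 1.67 for H3K27me3 (3.18-fold) and 0.80 for Ksu, higher in 8 of 8 libraries with an adjusted exact permutation p = 0.019. Its peaks were taller by 0.20 on the log2 scale in H3K27me3 and by 0.10 in Ksu.

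Chromosome 2 is the largest of the 5 and the poorest in genes, with 5.33 protein-coding genes per Mb. H3K27me3 covered 9.07% and 5.55% of it in the controls and 7.62% and 6.25% after succinate, and Ksu covered 6.36% and 8.53% in the controls and 10.9% and 14.2% after succinate. Its log2 cover ratio averaged 0.32 in H3K27me3 and 0.66 in Ksu, higher in 8 of 8 libraries with an adjusted exact permutation p = 0.019. By library the Ksu ratio was 1.26 and 0.38 in the controls and 0.73 and 0.27 after succinate, and the H3K27me3 ratio 0.32 and 0.39 in the controls and 0.27 and 0.29 after succinate. The Ksu ratio was thus the larger in both libraries of replicate 1 and slightly the smaller in both of replicate 2. Height was above the other autosomes by 0.14 and 0.08, in 8 of 8 libraries.

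Chromosome 16 was covered by H3K27me3 to 11.2% and 6.55% in the controls and 10.2% and 8.39% after succinate. Ksu covered 3.39% and 6.36% of it in the controls and 9.61% and 14.1% after succinate. The log2 ratio averaged 0.66 and 0.21, above 0 in 7 of 8 libraries, with an adjusted exact permutation p = 0.029. The exception was Ksu control replicate 2, at -0.08. The call was lost, with an adjusted exact permutation p of 0.0529 to 0.0573, when any 1 library but that one was left out. Its peak height did not pass, at 0.03 in H3K27me3 and 0.01 in Ksu with an adjusted exact permutation p = 0.258.

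Chromosome 17, the richest of the 5 at 14.9 genes per Mb, differed between the marks. H3K27me3 covered 13.1% and 9.24% of it in the controls and 13.9% and 12.2% after succinate. Ksu covered 1.56% and 4.25% in the controls and 7.66% and 13.2% after succinate. Relative to the other autosomes the H3K27me3 cover was higher in all 4 libraries, by 1.11 on average on the log2 scale. The Ksu ratio was -0.96 and -0.68 in the controls and 0.14 and 0.14 after succinate, so that the treatments did not overlap. This was not particular to chromosome 17. Chromosomes 1, 12, 15, 16, 19 and 22 did not overlap in the same direction, and chromosome 5 did not in the other. Chromosome 19 had -2.27 and -1.12 in the controls and -0.53 and -0.15 after succinate. Over the 8 libraries the chromosome did not pass, with an adjusted exact permutation p = 0.286 for cover.

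The values for chromosome 14 went against its place in the group. H3K27me3 covered 6.12% and 3.51% of it in the controls and 5.58% and 4.47% after succinate. Ksu covered 1.74% and 5.80% in the controls and 5.47% and 11.3% after succinate. The log2 ratio averaged -0.26 and -0.37, lower in 8 of 8 libraries, with an adjusted exact permutation p = 0.019. Its peaks were also the shorter ones, by -0.08 and -0.05. Set against the 17 autosomes outside the group alone, the gap in H3K27me3 cover nearly closed, at -0.09 and -0.08 in the controls and -0.0041 and 0.01 after succinate, while Ksu cover stayed lower at -0.56 and -0.20 in the controls and -0.19 and -0.04 after succinate. Over the 8 libraries that cover ratio averaged -0.14 (adjusted exact permutation p = 0.0397), and peaks per Mb no longer passed, at -0.10 (adjusted exact permutation p = 0.241).

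Chromosome 10, which is not in the group, stood above the other autosomes as well. H3K27me3 covered 12.0% and 7.32% of it in the controls and 10.3% and 8.29% after succinate, and Ksu covered 5.29% and 7.89% in the controls and 11.1% and 14.8% after succinate. Its mean log2 cover ratio was 0.74 in H3K27me3 and 0.54 in Ksu, higher in 8 of 8 libraries. In H3K27me3 alone, chromosomes 22, 11 and 1, also outside the group, were higher in all 4 libraries. Their mean log2 cover ratios there were 1.41, 0.56 and 0.41, each above the 0.32 of chromosome 2. In Ksu their means were -0.91, -0.01 and -0.28, so they did not pass above over both antibodies. A raised peak load was therefore not particular to the 5 gained chromosomes.

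Across the 22 autosomes, the mean height of a chromosome in H3K27me3 and in Ksu went together, with Pearson's r = 0.64 and Spearman's rho = 0.57. For covered share r was 0.22 and rho was 0.14. These values describe 22 chromosomes of the same cells, which share gene density, base composition and copy number between the marks.

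The chromosomes were next cut into blocks of 10 Mb, of which 55 on the gained chromosomes and 217 on the others had at least 5 Mb of occupied length. For Ksu, 38 of the 55 gained blocks (69.1%) had a mean covered share above the autosomal value, against 56 of 217 other blocks (25.8%) and 34.6% of all blocks. For Ksu height it was 34 of 55 (61.8%) against 57 of 217 (26.3%), and 33.5% of all. For H3K27me3 cover it was 32 of 53 (60.4%) against 63 of 188 (33.5%), and 39.4% of all, over blocks with a peak in all 4 libraries. For H3K27me3 height it was 28 of 53 (52.8%) against 51 of 188 (27.1%), and 32.8% of all. Blocks of a chromosome are neighbours and not replicates, so these counts describe the pattern and carry no test.

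On the mean of 4 libraries, the raised Ksu cover ran along the whole of chromosomes 2 and 20. All 24 blocks of chromosome 2 and all 6 of chromosome 20 lay above the autosomal value, as did 6 of 8 on chromosome 16, 2 of 8 on chromosome 17 and 0 of 9 on chromosome 14. Chromosome 10 had 13 of 13 above. The mean Ksu cover of a block ranged from 7.77% to 11.5% on chromosome 2, from 9.58% to 13.7% on chromosome 20 and from 5.07% to 7.20% on chromosome 14. It ranged more widely on chromosomes 16, from 4.90% to 9.85%, and 17, from 4.87% to 9.30%. The SD over blocks of log2 relative cover, taken on the mean of 4 libraries, was 0.16 on chromosome 2, 0.22 on 14 and 0.20 on 20, against 0.33 on chromosome 16 and 0.60 on chromosome 17. Single libraries varied more, and in Ksu control replicate 1 the blocks of chromosome 14 ran from 0.713% to 2.11%. In Ksu control replicate 2 the 2 chromosomes overlapped. There chromosome 2 fell to 5.15% at 90 to 100 Mb, below the autosomal value, and chromosome 14 reached 8.15% at 40 to 50 Mb.

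**Figure D3:**
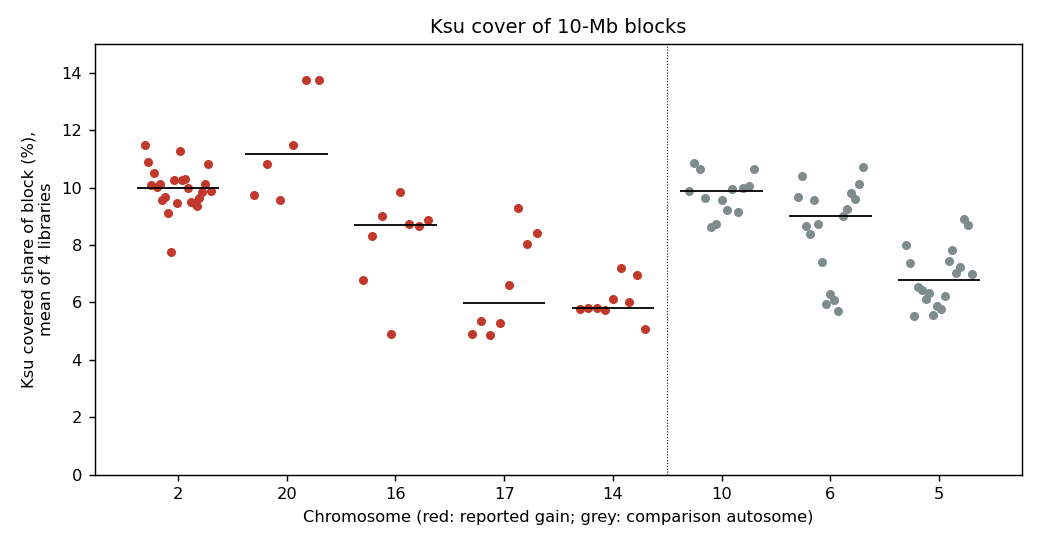
Ksu covered share in percent, mean of 4 libraries, for each 10-Mb block of the gained chromosomes (red) and of chromosomes 10, 6 and 5 (grey), with blocks in chromosome order from left to right and bars at the median. Blocks of chromosome 2 lie between 7.77% and 11.5% and do not fall to the level of chromosome 14, whose highest block is at 7.20%.

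H3K27me3 was patchy on the same chromosomes. The SD over blocks of log2 relative cover was 1.83 on chromosome 2, 2.10 on 14, 0.91 on 16, 0.98 on 17 and 1.03 on 20. On chromosome 2 the tallest H3K27me3 peaks on average lay between 210 and 220 Mb, a block with 81 genes, 0.38 above the autosomal mean log2 height. The lowest lay between 50 and 60 Mb, with 24 genes, at -0.41. On chromosome 17 the highest block was 70 to 80 Mb at 0.45, where peaks covered 27.3% on average, and the lowest was 10 to 20 Mb at -0.26. On chromosome 14 the block from 100 to 110 Mb stood at 0.25 in H3K27me3, the highest of that chromosome, and at -0.13 in Ksu, the lowest. The highest and lowest H3K27me3 blocks were 30 to 40 Mb (0.22) and 10 to 20 Mb (-0.18) on chromosome 16, and 30 to 40 Mb (0.27) and 20 to 30 Mb (-0.14) on chromosome 20.

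Ksu heights varied far less between blocks. On chromosome 20 they ran from 0.04 above the autosomal mean log2 height, at 0 to 10 Mb, to 0.12 at 40 to 50 Mb, so the lowest block was still above the mean. On chromosome 2 they ran from -0.05 at 90 to 100 Mb to 0.12 at 0 to 10 Mb. On chromosome 16 they ran from -0.07 at 0 to 10 Mb to 0.05 at 60 to 70 Mb, and on chromosome 17 from -0.15 at 20 to 30 Mb to 0.03 at 50 to 60 Mb. The highest block of chromosome 14, at 80 to 90 Mb, was at -0.02, below the mean.

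Within chromosome 17 the Ksu cover changed along its length. The split at 50 Mb was chosen after the values were seen. Before 50 Mb, at 17.6 genes per Mb, Ksu covered 0.693% and 3.18% in the controls and 5.92% and 12.0% after succinate. From 50 Mb on, at 9.67 genes per Mb, it covered 2.94% and 5.92% in the controls and 10.3% and 15.2% after succinate. In each library the distal stretch was the more covered. Relative to the 17 other autosomes the log2 ratio before 50 Mb was -1.88 and -1.06 in the controls and -0.07 and 0.05 after succinate. Chromosome 20 was split at 30 Mb in the same way. From 30 Mb on, Ksu covered 7.60% and 7.74% in the controls and 19.5% and 17.2% after succinate, and before it 8.75% and 8.21% in the controls and 10.7% and 12.7% after succinate.

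Gene density was examined because the gained chromosomes are richer in genes, with 8.15 protein-coding genes per Mb against 6.91, or 23.1% of the genes on 20.3% of the length. Blocks were put into 3 classes of equal size by genes per Mb. In H3K27me3 the gained-to-other log2 ratio of covered share was 1.73 ± 0.28 in the poorest class, 0.70 ± 0.10 in the middle one and 0.19 ± 0.02 in the richest (SD, n = 4). All 12 of these library values were above 0, and the gap was smallest where genes were densest. In Ksu the ratio was 0.69 ± 0.53, 0.43 ± 0.33 and 0.41 ± 0.27 (SD, n = 4), and the classes overlapped. The gained chromosomes gave 12, 17 and 26 blocks to the classes and the other autosomes 79, 73 and 65. Most gained blocks of the poorest class lay on chromosome 2. H3K27me3 covered 12.4%, 9.95% and 16.3% of its blocks at 0 to 10, 10 to 20 and 120 to 130 Mb, as means of 4 libraries. No other gained block of that class exceeded 3.99%, the value of chromosome 20 at 10 to 20 Mb. The pooled gap was therefore present in each class for both marks, but for H3K27me3 in the poorest class it rested largely on those chromosome 2 blocks.

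**Figure D4:**
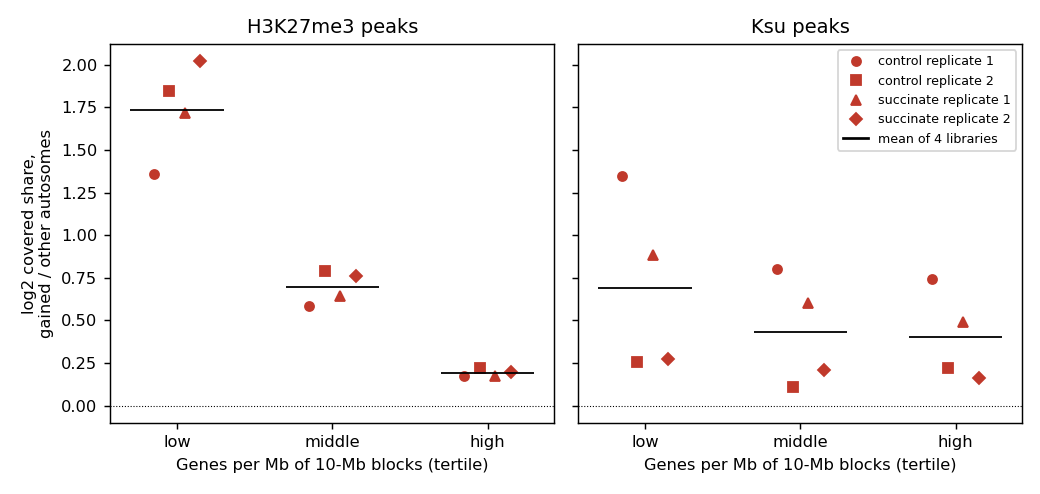
Log2 ratio of covered share, gained to other autosomes, in 10-Mb blocks of low, middle and high gene density, one symbol per library, with H3K27me3 left, Ksu right and bars for the mean of 4 libraries. The H3K27me3 means fall from 1.73 to 0.19 with gene density, while the Ksu libraries overlap between classes.

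Over all 22 autosomes, covered share and gene density were related differently in the libraries. For H3K27me3, Pearson's r was between 0.47 and 0.58 and Spearman's rho between 0.77 and 0.81. For Ksu, r was -0.50 and -0.77 in the controls and -0.01 and 0.10 after succinate, and rho was -0.35 and -0.62 in the controls and 0.31 and 0.39 after succinate. Gene-rich chromosome 17 thus had low Ksu cover in both control libraries, as did chromosomes 19 and 22, which are not gained. Chromosome 19 had a Ksu cover of 0.628% and 3.14% in the controls and 4.86% and 10.9% after succinate. These are descriptions of 22 points that share library, floor and base composition.

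Succinate moved the gained-to-other ratio of number and cover by less than the pooled SD of replicates. The ratio of height moved by more than that SD in Ksu and by little more in H3K27me3, where the libraries overlapped. For H3K27me3 the log2 ratio in succinate minus control was 0.04 for peaks per Mb, 0.03 for cover and 0.02 for height, with pooled SDs of 0.13, 0.09 and 0.01 (exact two-sided permutation p = 1, 1 and 0.667). For Ksu the differences were -0.06, -0.03 and 0.03, with pooled SDs of 0.40, 0.44 and 0.01 (exact permutation p = 1, 1 and 0.333). With 2 libraries against 2 the smallest p is 0.333, so no difference could pass. For Ksu cover the difference was -0.20 within replicate number 1 and 0.14 within number 2, of opposite sign. For H3K27me3 height it was 0.034 and -0.0015, also of opposite sign. Ksu height was the 1 measure whose libraries did not overlap, at 0.05 and 0.02 in the controls and 0.07 and 0.07 after succinate. At the common floor these libraries overlapped, at 0.0484 and 0.0431 in the controls and 0.0491 and 0.0481 after succinate. The difference in Ksu height was then 0.0028.

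In single blocks, Ksu height relative to the library's autosomal mean was higher in both succinate libraries than in both controls in 26 of 55 gained blocks, 47.3%, against 29.0% of all blocks. It was lower in both in 5 gained blocks, against 19.9% of all. For Ksu cover the counts were 19 higher, against 29.8% of all blocks, and 6 lower, against 16.2%. For H3K27me3 cover, 9 of 53 gained blocks were higher, against 14.9% of all, and 12 were lower, against 27.8%. For H3K27me3 height, 8 were higher, against 11.6%, and 16 lower, against 32.4%. Apart from Ksu height, these shares were near the background.

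The gained blocks with higher Ksu cover in succinate lay mostly on chromosomes 17, 14 and 16. On chromosome 17 it was 7 of 8 blocks, with a median log2 difference of 1.34, on chromosome 14 it was 5 of 9 (0.50) and on chromosome 16 it was 5 of 8 (0.36). On chromosome 2 it was 2 of 24, with 5 lower and a median of -0.33, and on chromosome 20 it was 0 of 6. This was not particular to the gained chromosomes. Of the 217 other blocks, 62 were higher (28.6%). Among them were 6 of 6 on chromosome 19 (median 1.43), 3 of 3 on 22 (1.75) and 6 of 8 on 15 (0.60). Chromosome 5 had 1 of 18 higher and 11 lower. The control libraries had the higher floor in each replicate pair, and the part of that in the block differences was not tested. At the common floor, log2 Ksu cover relative to the 17 other autosomes was read by chromosome. On chromosome 17 it was -0.71 and -1.88 in the controls and 0.51 and 0.38 after succinate. On chromosome 16 it was 0.40 and 0.10 against 1.02 and 0.82, and on 14 it was -0.56 and -0.77 against -0.40 and -0.32. On chromosomes 2 and 20 the treatments overlapped. Only 2507 peaks remained in control replicate 2 there.

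Regions shared by libraries were counted after merging the peaks of the 4 libraries of an antibody. Of 4307 H3K27me3 regions on the gained chromosomes, 1287 were present in all 4 libraries, and 26.0% of all autosomal regions were. That was 2.37 per Mb, against 1.35 on the other autosomes. Of 226048 Ksu regions there, 2332 were present in all 4, while 0.561% of all were, giving 4.30 per Mb against 1.58. The gained chromosomes thus held 31.0% of the H3K27me3 regions and 41.0% of the Ksu regions found in every library, on 20.3% of the length. Such counts rise with the cover of each library, so they are not independent of the cover given above. Chromosome 2 alone held 1405 of the 2332 shared Ksu regions.

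Shared Ksu regions were spread over the 5 chromosomes in the order already seen for cover. Chromosome 20 had 8.16 per Mb, chromosome 2 had 5.97, chromosome 16 had 3.12, chromosome 17 had 1.35 and chromosome 14 had 0.836. Ksu regions present in both succinate libraries and in neither control numbered 15067 of 226048 on the gained chromosomes and 55708 of 1014531 on all autosomes. On the gained chromosomes that was 27.8 per Mb, against 19.1 elsewhere. The reverse pattern numbered 1669 there and 6521 on all autosomes, or 3.08 per Mb against 2.28 elsewhere. The control libraries had the higher floor in each replicate pair, and the part of that in these counts was not tested. For H3K27me3 the 2 patterns held 5 and 25 regions on the gained chromosomes, of 19 and 98 on all autosomes.

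The single highest autosomal H3K27me3 peak of each library lay on a gained chromosome. The highest peak there exceeded the highest on the other autosomes, at 1196 and 1178 steps in the controls against 822 and 868, and 1474 and 2358 after succinate against 1002 and 1664. Of the peaks at least 4 times as tall as their library's median, between 44.7% and 51.9% lay there in the 4 libraries. Of all autosomal H3K27me3 peaks, 27.8% to 31.0% lay there. The tall peaks were few, with 18 there and 18 elsewhere in control replicate 2. The Ksu maxima showed no such order. They were 143 and 58 steps against 147 and 60 in the controls, and 112 and 152 against 141 and 107 after succinate. Of Ksu peaks at least 4 times the median, 66.7% and 26.3% lay on the gained chromosomes in the controls and 32.6% and 32.2% after succinate. The 66.7% rested on 2 peaks there and 1 elsewhere. The shares of all autosomal Ksu peaks were 30.7% and 21.3% in the controls and 27.5% and 22.5% after succinate.

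The highest H3K27me3 region present in all 4 libraries was then named for each gained chromosome, in hg38 coordinates of the peaks. On chromosome 17 it was chr17:48515842-48650921, which holds 9 HOXB genes, homeobox regulators of body-axis identity. Its height was 1196 and 1178 steps in the controls, the tallest autosomal peak of each, and 1276 and 2058 after succinate, ranking 3 in each. On chromosome 20 it was chr20:46091382-46345922 over CD40, a receptor of immune co-stimulation, and the cadherin CDH22. It ranked 2 in both control libraries, at 1143 and 1166 steps, and 1 in both succinate libraries, at 1474 and 2358.

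On chromosome 2 the region was chr2:26549219-26599519 over OTOF, a calcium sensor of hair-cell synapses, CIMIP2C and the calcium-binding CIB4. It had 864 and 1030 steps in the controls and 1290 and 2326 after succinate, within the first 4 ranks of each library. On chromosome 16 it was chr16:970053-1076074 over LMF1, SOX8, a neural-crest regulator, and the somatostatin receptor SSTR5, with 677 and 740 steps in the controls and 1003 and 1191 after succinate. On chromosome 14 it was chr14:105136353-105206370 over the Notch ligand JAG2 and NUDT14, with 442 and 528 steps in the controls and 701 and 1009 after succinate. That region ranked only between 44 and 96, below the regions named for the other 4 chromosomes in every library.

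Genes were counted by overlap of their bodies with peaks in all 4 libraries of an antibody. For H3K27me3 this held for 762 of 4419 genes on the gained chromosomes (17.2%) and 1690 of 14707 elsewhere (11.5%), with 12.8% of all genes. By chromosome the share was 27.2% on 20, 19.0% on 2, 15.3% on 17, 14.5% on 16 and 12.4% on 14. For Ksu it was 1633 genes (37.0%) against 4628 (31.5%), with 32.7% of all. Chromosomes 2 and 20 had Ksu in 56.9% and 54.4% of their genes, chromosomes 14 and 16 in 28.3% and 28.0%, and chromosome 17 in 18.6%. Chromosome 17 had the smallest share of the 5.

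Promoters were read in the same way. Of 3452 matched promoters on the gained chromosomes, 336 (9.73%) were overlapped by H3K27me3 in all 4 libraries, against 818 of 11649 (7.02%) elsewhere and 7.64% of all. The H3K27me3 share by chromosome was 15.6% on 20, 12.7% on 2, 7.62% on 14, 6.87% on 16 and 6.43% on 17. Chromosomes 16 and 17 thus lay below the other autosomes. In all 4 Ksu libraries, 0 promoters were overlapped on the gained chromosomes and 4 elsewhere, 0.0265% of all. With so few promoters called, that count says nothing of the gained chromosomes. In single libraries Ksu touched 2.55% and 6.37% of the gained-chromosome promoters in the controls, against 1.97% and 7.97% elsewhere, and 9.07% and 11.2% after succinate, against 7.74% and 13.2%. The direction differed between the replicates.

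Next, 3 lists of genes on the gained chromosomes were read. The first held 90 regulators of development, the second 37 genes of liver function and the third 31 housekeeping genes, and all were matched. H3K27me3 lay on 59 of the 90 developmental regulators in all 4 libraries and on 70 in at least 1. It lay on 1 of the 37 liver genes and on 0 of the 31 housekeeping genes in all 4, where the share over all genes was 12.8%. By bases, it covered 55.8% and 43.1% of the developmental gene bodies in the controls and 52.0% and 50.1% after succinate. It covered 2.95% and 0.343% of the liver genes in the controls and 2.72% and 1.05% after succinate. The developmental list was thus the most covered of the 3 in every library, by a margin far wider than the spread between libraries.

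**Figure D5:**
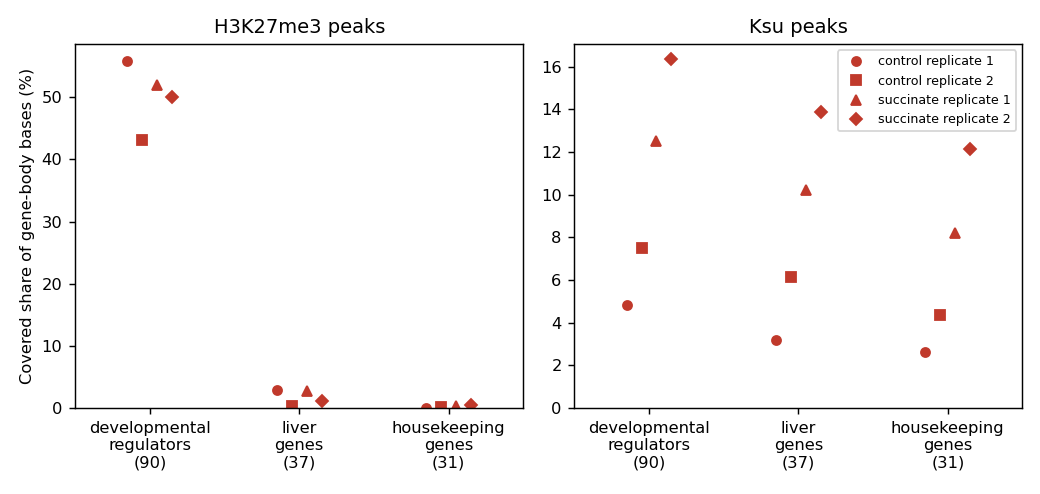
Covered share of gene-body bases in percent for 3 lists of genes on the gained chromosomes, one symbol per library, with H3K27me3 left and Ksu right on separate scales that start at 0. H3K27me3 covers 43.1% to 55.8% of the developmental regulators and under 3% of the others, while Ksu covers all 3 lists at like levels within a library.

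Among the developmental regulators, 22 of 30 on chromosome 2 carried H3K27me3 in all 4 libraries, 19 of 25 on 17, 10 of 15 on 20, 4 of 9 on 16 and 4 of 11 on 14. Of these 59 genes, 34 were covered over their whole bodies in each library, 14 on chromosome 2, 1 on 14, 2 on 16, 13 on 17 and 4 on 20. Among them were WNT10A and WNT6 on chromosome 2, GSC on 14, FOXF1 and SOX8 on 16, NEUROD2 and TBX21 on 17, and NKX2-2 and TFAP2C on 20. FOXF1 is a forkhead regulator of mesenchyme, NEUROD2 a neuronal basic helix-loop-helix factor and TBX21 the T-box regulator of T helper cells.

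Other genes marked in all 4 libraries were covered in part. PAX3 on chromosome 2, a regulator of neural crest and muscle, had the smallest share among the listed genes of that chromosome marked in all 4 libraries, 12.4% and 10.6% in the controls and 10.1% and 11.3% after succinate. POU3F3 had 53.2% and 15.6% in the controls and 38.5% and 22.9% after succinate. On chromosome 14, PAX9 had 32.0% and 31.9% in the controls and 32.4% and 35.3% after succinate, and OTX2, a forebrain regulator, had 51.3% in each control and 62.1% and 94.3% after succinate. On the other chromosomes the smallest shares among genes marked in all 4 libraries belonged to SALL1 (mean 32.5%) and FOXL1 (86.4%) on chromosome 16, WNT9B (70.3%) and MEOX1 (74.8%) on 17, and VSX1 (33.5%) and EYA2 (40.4%) on 20. Among genes marked in all 4 libraries, the least covered on chromosome 17 were thus covered to more of their body than those on chromosomes 2 and 20.

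Liver and housekeeping genes were mostly free of H3K27me3. LBP on chromosome 20, which binds bacterial lipopolysaccharide, was covered to 61.0% and 0% in the controls and 47.1% and 20.7% after succinate. UGT1A1, the bilirubin-conjugating enzyme, was covered in replicate 1 of each treatment, to 38.4% and 19.3%. CETP, MT2A, ABCB11 and PCK1 were each marked in 1 library. Among the housekeeping genes the translation factor EIF6 was marked in 2 libraries and the actin gene ACTG1 in 1.

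Ksu did not separate the lists in that way. It covered 4.83% and 7.48% of the developmental gene bodies in the controls and 12.5% and 16.4% after succinate. It covered 3.17% and 6.13% of the liver genes in the controls and 10.2% and 13.9% after succinate, and 2.64% and 4.34% of the housekeeping genes in the controls and 8.23% and 12.1% after succinate. In every library the order was developmental, liver, housekeeping, and the lists differed by less than the libraries did. In all 4 Ksu libraries it touched 14 of 90 developmental, 12 of 37 liver and 4 of 31 housekeeping genes, where the share over all genes was 32.7%. By that count the liver list was near the share and the others were under it, although by bases the developmental list was the most covered. Gene length, which differs widely between the listed genes, was not taken into account in the count.

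Ksu peaks also lay inside H3K27me3 peaks. Of the H3K27me3 bases on the gained chromosomes, 6.11% and 7.15% were under Ksu peaks of the same replicate number in the controls and 15.7% and 16.3% after succinate. On the other autosomes it was 3.52% and 6.64% in the controls and 11.3% and 16.3% after succinate. Divided by the Ksu share of the same chromosomes, the gained values were 1.31 and 1.01 in the controls and 1.59 and 1.20 after succinate, and the others 1.37 and 1.00 in the controls and 1.81 and 1.41 after succinate. Relative to how much Ksu there was, the overlap of the marks was lower on the gained chromosomes in 3 of the 4 pairs and near equal in the fourth.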

How the data were processed

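The deposited files are 1 peak list per library, made by the authors, so replicates were not pooled. Per the submitters' processing notes the caller was SEACR and the build hg38, and per the file names the mode was stringent. The aligner, the scaling of the signal, the control track, the threshold and the read depth are not given in the sources used here. Columns 4 and 5 hold total and highest signal as deposited. All highest-signal values of a library were whole multiples of 1 step, within 0.02, and heights were counted in steps, because the step differed 32.2-fold between H3K27me3 libraries.

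Peaks were assigned by midpoint to 10-Mb blocks. Occupied length is the number of 100-kb windows with a peak of any library. Peaks per Mb, covered share and mean log2 height were computed per library (python 3.11.15, numpy 2.4.6, pandas 2.3.3, figures with matplotlib 3.10.9). Ratios were tested with exact sign-flip or permutation tests over libraries, adjusted by Benjamini-Hochberg, and the code was tested on simulated data. Chromosome arms were not used here, and 10-Mb blocks took their place. Genes and promoters came from RefSeq tables of GRCh38.p14 (19126 protein-coding genes on autosomes, 15101 promoters matched).

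Named were, per gained chromosome, the blocks of highest and lowest mean height, the highest shared H3K27me3 region and any marked liver or housekeeping gene. Also named were the 2 most and 2 least covered developmental genes marked in all 4 libraries, and the matched promoter with the tallest peak. Results for some single genes that this rule names are not reported here. The members, lists and tests were chosen with earlier results of these data known. Alternatives were a common floor, the peaks in the upper 50% of total signal, other lengths and filters, a chromosome or a library left out, and replicate number as a block.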

Additional observations from a re-analysis of the deposited data

Results flagged for a closer look

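Peaks outside the 22 autosomes took no part in the comparisons, and their totals over 4 libraries exceeded the 3 that a count of 0 allows. H3K27me3 had 270 peaks on X, between 18 and 169 per library. Ksu had 29578 peaks on X, between 533 and 14891 per library. Ksu also had 4018 peaks on Y, between 79 and 2069 per library. Sequences outside the chromosomes held 33 H3K27me3 peaks and 1786 Ksu peaks. No IgG value was set beside these totals.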

How the results depend on the processing

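All 60 alternatives to the gained-to-other ratios kept their direction and their side of 0.05. Limits are set by floors, which differ widely between libraries, by 2 libraries a group and by unknown depth. The succinate differences could not pass any threshold, and their sign changed with the setting. With peaks in the upper 50% of total signal, H3K27me3 height became -0.014 and Ksu cover 0.016. At the common floor, number and cover became -0.11 and -0.079 for H3K27me3 and 0.27 and 0.32 for Ksu. Without chromosome 2 the Ksu values were 0.20 and 0.25, and without chromosome 17 the H3K27me3 values for cover and height were -0.018 and -0.0037. Leaving out 1 library gave -0.071 to 0.16 for number and -0.053 to 0.11 for cover in H3K27me3, and -0.42 to 0.29 and -0.41 to 0.36 in Ksu. The cause of these changes was not tested.

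The antibody differences for number, cover and height were 0.65, 0.80 and 0.12 without chromosome 2, all past the threshold. Leaving out 1 library gave 0.21 to 0.45, 0.25 to 0.50 and 0.091 to 0.11, and without Ksu control replicate 1 all 3 passed, with adjusted exact permutation p = 0.0286. Leaving out 1 library also left 4 to 8 autosomes below the others in number, against 9 with all libraries, with 8 only without Ksu control replicate 2 and 4 or 5 otherwise. One library fewer raises the smallest possible p. Set against the 17 autosomes not gained, an alternative chosen after seeing the data, 7 autosomes were above and 4 below in number, where 4 and 9 were with all others.

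Replicate numbers are shared by the groups. Over blocks, the replicate differences in control and in succinate correlated at 0.72 in H3K27me3 and 0.86 in Ksu, and between the antibodies at -0.10 and -0.19. The labels name no shared day or batch. With the replicate block the antibody differences kept their values of 0.32, 0.37 and 0.10 (exact sign-flip permutation p = 0.375, 0.25 and 0.125) and the succinate differences kept theirs, and no call changed. With the numbers crossed between antibodies 0 differences passed, as none could.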

Other observations

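Chromosome 6 is not among the gained chromosomes, and its peaks changed level along its length. The limits used here, 70 and 110 Mb, were chosen after the values were seen. From 0 to 70 Mb Ksu covered 4.54% and 7.51% in the controls and 9.69% and 14.2% after succinate. From 70 to 110 Mb it covered 2.34% and 7.32% in the controls and 4.59% and 9.79% after succinate. From 110 Mb on it covered 5.99% and 8.90% in the controls and 9.82% and 14.3% after succinate. The middle stretch, with 3.65 genes per Mb, thus had the lowest Ksu cover in all 4 libraries. It also had little H3K27me3, at 1.54% and 0.362% in the controls and 0.670% and 0.373% after succinate.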
